A study of Macaca radiata with 4 samples.

Results

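The genes described here encode the membrane transporters of the SLC1, SLC2, SLC3, SLC5, SLC6, SLC7, SLC16, SLC38 and SLC43 families, which carry glucose, amino acids and monocarboxylates such as lactate into and out of cells. They were chosen by symbol alone: a probe set belonged when the probe annotation gave it 1 gene symbol of these families. This gave 123 of 52766 probe sets and 76 of 14132 genes, and each gene was represented by its probe set with the highest mean of log2(signal + 16). The tissue was the corpus luteum of female bonnet monkeys (Macaca radiata), measured on 4 rhesus macaque arrays. The 2 animals of the rhLH group received 20 IU/kg of rhLH, a recombinant luteinizing hormone, and the 2 of the PBS group received 0.5 ml of PBS. All of them had received CET (150 µg/kg) 24 h earlier, on luteal phase day 7, which per the labels inhibits the animal's own LH secretion, so no animal with undisturbed LH was in the comparison. Corpora lutea were collected 8 h after rhLH or PBS. The arrays are rhLH replicates 3 and 4 and PBS replicates 1 and 2, and signals are always given in that order.

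The corpus luteum is the progesterone-secreting gland that forms from the ovulated follicle, and LH maintains it through cAMP. Its steroid-producing cells draw on blood glucose and amino acids, and its dense capillary bed supplies both. SLC2 proteins let sugars pass down their gradient, whereas most SLC5 proteins pull sugars, vitamins or monocarboxylates in with sodium. SLC1, SLC6 and SLC38 proteins couple amino acid uptake to ion gradients, SLC7 proteins are exchangers and cationic amino acid carriers of which several need an SLC3 heavy chain, SLC43 proteins carry large neutral amino acids or nucleobases, and SLC16 proteins move lactate and other monocarboxylates, in the best known members together with protons. The SLC6 family also holds carriers of neurotransmitters, creatine and taurine.

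Of the 76 genes, 48 (63.2%) lay above a filter set at the 40th percentile of mean log2 over all probe sets, equal to a signal of 90.7, as did 77.8% of all 14132 genes. They numbered 4 of 6 in SLC1, 6 of 10 in SLC2, 6 of 11 in SLC5, 8 of 15 in SLC6, 5 of 11 in SLC7, 8 of 10 in SLC16, 8 of 9 in SLC38 and 3 of 3 in SLC43, while SLC3A1, the single SLC3 gene matched, lay below. Of the 48, 38 were above 90.7 on all 4 arrays. The others were above it on some arrays, for example SLC1A5 and SLC16A5 on all but PBS replicate 1, and SLC38A1 on both PBS arrays and neither rhLH array. The nearest genes inside the filter were SLC38A1 and SLC6A6, at mean levels equal to signals of 93.2 and 93.3, and the nearest outside were SLC3A1 and SLC6A15, at 69.2 and 66.8. Detection calls were not used here, so "above the filter" describes the signal and is not a call of presence. Signals of different probe sets depend on their probes and were not ranked as amounts of transcript.

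PBS replicate 1 stood apart: its Pearson correlation with the other arrays over the 48 genes was 0.638 to 0.730, against 0.903 to 0.942 among the other 3 (over 31659 probe sets above the filter, 0.752 to 0.780 against 0.940 to 0.947). The median gap between the arrays of a group over the 48 genes was 0.37 on the log2 scale with rhLH and 0.61 with PBS. The rhLH arrays were over 2-fold apart in 5 genes (10.4%, background 6.48%) and the PBS arrays in 15 (31.2%, background 32.3%). Differences are therefore also given against each PBS array, and both values then share the same rhLH arrays. STAR, the cholesterol carrier that defines steroid-producing luteal cells, had signals of 52570.3 and 51659.6 on the rhLH arrays, against 24283 and 54566 on the PBS arrays. Of the 41 cell type markers looked for, 24 were matched, and all 24 lay above the filter. Summed marker signals were 99657 and 111247 with rhLH, against 51843 and 91689 with PBS, for luteal cells (4 of 7 matched), 17064 and 18868 with rhLH, against 15804 and 19940.3 with PBS, for endothelium (6 of 7), 7086 and 4369 with rhLH, against 3330.2 and 5561 with PBS, for macrophages (5 of 6), and 54547 and 60514 with rhLH, against 31810.0 and 63004 with PBS, for fibroblasts (4 of 5). The luteal sums were higher on both rhLH arrays and the other 3 overlapped. Of the 4 luteal markers, CYP19A1 and HSD3B2 were higher on both rhLH arrays, while STAR and NR5A1 overlapped. PBS replicate 1 had the lowest sum for each of these 4 cell types. T cells were represented by CD8A alone, with 133 and 50.7 on the rhLH arrays, against 90.8 and 118 on the PBS arrays, red cells by 2 of 6 markers with sums of 996 and 1235 with rhLH, against 1123 and 899 with PBS, and smooth muscle and pericytes by 2 of 5 with sums of 3164 and 2199 with rhLH, against 2704 and 5302 with PBS. The part of cell makeup in the results was not tested. In whole tissue, fewer cells of a type and less RNA per cell cannot be told apart.

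No transporter gene passed the limma test of rhLH against PBS (0 of 48 at an adjusted p of 0.05, background 0%; adjusted p of 0.919 to 0.995). At an unadjusted p under 0.05 the test gave 1 of 48, SLC7A8, against a background of 2.02% of all 31659 probe sets and 1.9% of all 10998 genes above the filter. Without PBS replicate 2, 11 of the 48 passed (22.9%, background 25.8%), with the lone PBS array assumed to vary like the rhLH arrays. With 2 arrays against 2, an exact permutation test of a single gene cannot go below 0.333. The order of the arrays showed more transporters lower than higher: 15 of the 48 had both rhLH arrays below both PBS arrays (31.2%, background 16.1%), 5 had both above (10.4%, background 16.3%) and in 28 the groups overlapped. The 15 include SLC38A1, which was above the filter signal on the PBS arrays alone. The median log2 difference was −0.19 over the 48 genes, against 0.018 over all genes above the filter. Relative to PBS replicate 1 it was −0.35 (all genes −0.011), and relative to PBS replicate 2 it was −0.014 (all genes −0.0024). The split depended on how the arrays were scaled. With each array centred on its median, 10 transporters were higher and 8 lower, while the share of all genes moved to 25.8% higher and 9.48% lower. Under quantile normalization 8 were higher and 12 lower (all genes 17.3% and 14.4%). The median of all genes was 0.018 as deposited, 0.057 under quantile normalization and 0.25 with centred arrays. The transporters' median minus that of all genes was −0.21 as deposited and −0.17 under quantile normalization. Centring shifts all genes of an array alike, so it cannot change this value, which stayed at −0.21. Taken against PBS replicate 1 alone the value was −0.34, and against PBS replicate 2 alone −0.012. By a 2-fold rule, which asks that every rhLH array differ at least 2-fold from every PBS array, 0 of the 48 counted as higher (background 0.318%) and 0 as lower (background 0.336%).

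**Figure D1:**
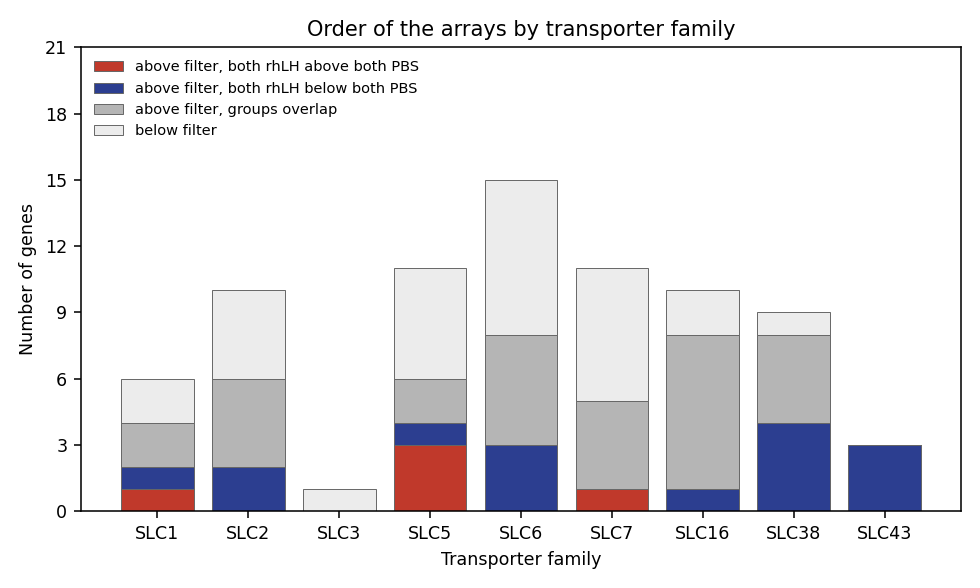
Number of genes in each transporter family (horizontal axis), split by the order of the 4 arrays among genes above the filter, with genes below the filter in pale grey. All 5 genes with both rhLH arrays above both PBS arrays (10.4%, background 16.3%) lie in SLC1, SLC5 and SLC7. With arrays centred on their medians, SLC2 also has 2 such genes and SLC6 and SLC16 have 1 each. Of the 15 genes with both below (31.2%, background 16.1%), 7 lie in SLC38 and SLC43, against 2 genes of these families with centred arrays.

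The split also varied with level among all genes. Between the filter and a stricter one at the 70th percentile (signal 361), 20.4% of all genes had both rhLH arrays below both PBS arrays and 11.4% above, and of the 31 transporters in that range 11 were lower and 3 higher. Above the stricter filter the shares of all genes were 13.8% lower and 18.8% higher, and of the 17 transporters 4 were lower and 2 higher.

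The genes given with full values below were named by a rule: the 3 with the highest mean signal in each family, any above the filter with separated groups and a log2 difference of at least 1 in size, and any with an unadjusted p under 0.05. This gave 25 genes, and every other transporter named was chosen after its values were seen.

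Among the amino acid exchangers, SLC7A8, which encodes the light chain LAT2 that exchanges neutral amino acids together with the SLC3A2 heavy chain, had signals of 459 and 527 on the rhLH arrays, against 183 and 246 on the PBS arrays. Both rhLH arrays lay above both PBS arrays. The mean was 493 ± 47.7 with rhLH and 215 ± 44.5 with PBS (SD, n = 2 each), a 2.22-fold higher level on the log2(signal + 16) scale, which all folds of single genes here refer to (log2 1.15, SE 0.43; unadjusted p = 0.037 and adjusted p = 0.919, limma across all probe sets). The log2 difference was 1.35 relative to PBS replicate 1 and 0.95 relative to PBS replicate 2, which are also its values with the other PBS array left out. It was 1.25 without rhLH replicate 3 and 1.06 without rhLH replicate 4. Its adjusted p was 0.0245 without PBS replicate 2, where 25.8% of all probe sets passed (limma, 1 PBS array). SLC7A8 was the member with the smallest p and had a single probe set.

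SLC7A7, the light chain that exports cationic amino acids and is known from macrophages as well as epithelia, had signals of 1582 and 507 on the rhLH arrays, against 372 and 805 on the PBS arrays. The groups overlapped, and rhLH replicate 3 was the highest array. Without it the log2 difference of 0.70 became −0.11. The macrophage marker sums given above had the same order of arrays, with rhLH replicate 3 highest and PBS replicate 1 lowest. So did CD14, CD68 and AIF1, while CSF1R and MRC1 were lowest on rhLH replicate 4. The part of macrophages in the SLC7A7 values was not tested. SLC7A2, a carrier of arginine and other cationic amino acids, had overlapping signals of 447 and 642 on the rhLH arrays, against 402 and 527 on the PBS arrays, a log2 difference of 0.21 (SE 0.41).

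Of the other SLC7 genes, SLC7A11, the cystine and glutamate exchanger that feeds glutathione synthesis, had signals of 165 and 289 on the rhLH arrays, against 485 and 204 on the PBS arrays, and SLC7A4 had 147 and 156 on the rhLH arrays, against 566 and 149 on the PBS arrays. In both, PBS replicate 1 stood above the other 3 arrays, and PBS replicate 2 lay between the rhLH arrays. SLC7A5, the LAT1 light chain, and SLC7A1, the widespread arginine carrier, lay below 90.7 on all 4 arrays, with no signal above 35.1 for SLC7A5 and 87.6 for SLC7A1. SLC3A1, the heavy chain of the renal cystine transporter, had 68.8 and 155 on the rhLH arrays, against 8.15 and 134 on the PBS arrays.

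In the SLC1 family, SLC1A4, the neutral amino acid exchanger ASCT1, had signals of 2254 and 1976 on the rhLH arrays, against 1924 and 1404 on the PBS arrays. Both rhLH arrays were above both PBS arrays on this probe set, by a log2 difference of 0.36 (SE 0.33), but its 3 further probe sets above the filter stood at −0.01, −0.25 and −1.36. SLC1A3, a glutamate transporter known from glia, had signals of 173 and 259 on the rhLH arrays, against 471 and 296 on the PBS arrays, with both rhLH arrays below both PBS arrays (log2 −0.77, SE 0.49). Its further probe set stood on the opposite side at 0.34. SLC1A7, a glutamate transporter known from the retina, had 382 and 388 on the rhLH arrays, against 601 and 361 on the PBS arrays, with the rhLH arrays between the PBS arrays.

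SLC1A5, the glutamine exchanger ASCT2, had signals of 399 and 319 on the rhLH arrays, against 30.5 and 344 on the PBS arrays. PBS replicate 1 was below the filter signal and PBS replicate 2 lay between the rhLH arrays, so its log2 difference of 1.53 (SE 0.99), the largest in size among the 48, was made up of 3.002 relative to PBS replicate 1 and 0.051 relative to PBS replicate 2.

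The SLC43 family had 3 genes on the array, and all 3 had both rhLH arrays below both PBS arrays (background 16.1%), against 1 of 3 under quantile normalization and 0 of 3 with arrays centred on their medians. Their median difference was −0.72 as deposited, −0.51 under quantile normalization and −0.49 with centred arrays. SLC43A3, a purine nucleobase transporter that is abundant in endothelium, had signals of 2381 and 3151 on the rhLH arrays, against 3916 and 5207 on the PBS arrays. The means were 2766 ± 544 with rhLH and 4561 ± 913 with PBS (SD, n = 2 each), 1.64-fold lower with rhLH (log2 −0.72, SE 0.34; unadjusted p = 0.080 and adjusted p = 0.919, limma). The value was −0.51 relative to PBS replicate 1 and −0.92 relative to PBS replicate 2. Its further probe set above the filter stood at −0.20 with overlapping groups, and the endothelial marker sums given above overlapped as well. The single endothelial markers differed: PECAM1 had both rhLH arrays below both PBS arrays and KDR had both above. CDH5, CLDN5, TEK and VWF overlapped.

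SLC43A1, which encodes LAT3, a facilitator of branched-chain and other large neutral amino acids, had signals of 192 and 149 on the rhLH arrays, against 256 and 266 on the PBS arrays. The PBS arrays lay close together and above both rhLH arrays (log2 −0.58, SE 0.47). SLC43A2, the related facilitator LAT4, had signals of 171 and 66.9 on the rhLH arrays, against 210.0 and 171 on the PBS arrays. Here rhLH replicate 3 and PBS replicate 2 had nearly equal signals, so the separation of the groups rested on rhLH replicate 4, and the log2 difference of −0.72 became −0.14 without it.

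The SLC38 family, sodium-coupled neutral amino acid transporters, had 8 genes above the filter, 4 of them with both rhLH arrays below both PBS arrays and 0 above (background 16.1% and 16.3%). The 4 include SLC38A1, which was above the filter signal on the PBS arrays alone. Lower genes numbered 3 of the 8 under quantile normalization and 2 with centred arrays. SLC38A7, a glutamine carrier of the lysosome, had signals of 122 and 92.7 on the rhLH arrays, against 563 and 149.6 on the PBS arrays. On the log2(signal + 16) scale it was 2.52-fold lower on the rhLH arrays, a difference of −1.34 (SE 0.73). This was −2.24 relative to PBS replicate 1 and −0.43 relative to PBS replicate 2, so that most of it came from PBS replicate 1. A further SLC38A7 probe set, below the filter with no signal above 27.5, had both rhLH arrays above both PBS arrays, at 0.29. SLC38A6 had signals of 549.8 and 545 on the rhLH arrays, against 1312 and 553 on the PBS arrays. It was lower on both rhLH arrays, but against PBS replicate 2 the difference was −0.014 on the log2 scale.

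SLC38A9, the lysosomal arginine sensor that signals to mTORC1, had 687 and 717 on the rhLH arrays, against 1196 and 609 on the PBS arrays, with the rhLH arrays between the PBS arrays. SLC38A10 had 3733 and 3723 on the rhLH arrays, against 2022 and 5127 on the PBS arrays, also with the rhLH arrays between them, and its 3 further probe sets above the filter ran from −0.31 to 0.80. The other 2 genes with separated groups were SLC38A4, at a log2 difference of −0.43, and SLC38A1, a glutamine importer of many tissues, at −0.66. SLC38A1 had 67.7 and 73.9 on the rhLH arrays, against 157 and 92.9 on the PBS arrays. Both of its rhLH signals lay below the filter signal, and that of PBS replicate 2 lay just above it. SLC38A3, a glutamine carrier known from liver, stood at 0.092 and SLC38A11 at −0.17, with overlapping groups.

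**Figure D2:**
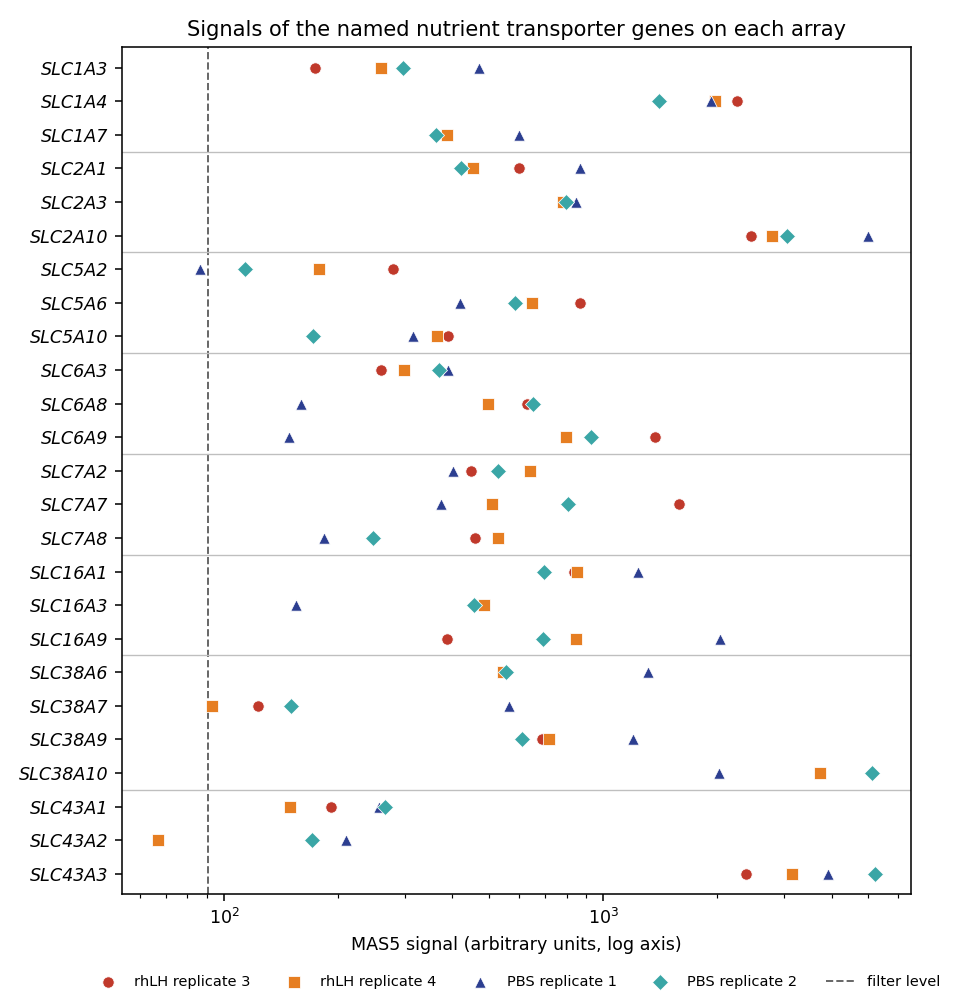
MAS5 signals on each of the 4 arrays (log axis, arbitrary units) for the 25 genes named by rule, ordered by family, with the filter level of 90.7 dashed. SLC7A8 and SLC5A2 show both rhLH arrays to the right of both PBS arrays, the SLC43 genes show them to the left or level, and PBS replicate 1 lies apart from the other 3 arrays in SLC6A8, SLC6A9 and SLC16A3.

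Of the 6 glucose facilitators above the filter, 2 had both rhLH arrays below both PBS arrays and 0 above (background 16.1% and 16.3%), against 1 lower and 2 higher with centred arrays. SLC2A1 (GLUT1, the carrier of basal glucose uptake in most cells) had signals of 599 and 454 on the rhLH arrays, against 866 and 421 on the PBS arrays, and the groups overlapped (log2 −0.21, SE 0.47; 0.019 with centred arrays). The difference was −0.71 relative to PBS replicate 1 and 0.30 relative to PBS replicate 2. SLC2A3, which encodes the high-affinity glucose carrier GLUT3, had 790.2 and 785 on the rhLH arrays, against 845 and 796 on the PBS arrays. These 4 signals were close to each other, with a log2 difference of −0.057 (SE 0.33) that was 0.17 with centred arrays, and the 4 probe sets of the gene above the filter ran from −0.27 to −0.06.

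SLC2A10 (GLUT10), whose loss causes arterial tortuosity, had signals of 2450.4 and 2778 on the rhLH arrays, against 4991 and 3056 on the PBS arrays. Both rhLH arrays lay below both PBS arrays, and means were 2614 ± 231 with rhLH and 4023 ± 1368 with PBS (SD, n = 2 each), 1.49-fold lower with rhLH (log2 −0.58, SE 0.36; −0.93 relative to PBS replicate 1 and −0.23 relative to PBS replicate 2). Overlapping groups were found for the fructose carrier SLC2A5 (−0.12), for SLC2A8 (0.32) and for SLC2A11 (0.20). The insulin-responsive carrier SLC2A4 (GLUT4) had 120.0 and 38.1 on the rhLH arrays, against 32.4 and 16.6 on the PBS arrays, above the filter signal on rhLH replicate 3 alone, and the liver carrier SLC2A2 (GLUT2) had 22.8 and 18.8 on the rhLH arrays, against 7.81 and 10.4 on the PBS arrays.

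Among sodium-coupled SLC5 carriers, 3 of the 6 above the filter had both rhLH arrays above both PBS arrays (background 16.3%) and 1 had both below (background 16.1%), and 4 were higher and 1 lower under either other scaling. SLC5A2, the SGLT2 glucose transporter known from the renal proximal tubule, had signals of 279 and 178 on the rhLH arrays, against 86.3 and 114 on the PBS arrays. It was 2.07-fold higher with rhLH, a log2 difference of 1.05 (SE 0.55; 1.22 relative to PBS replicate 1 and 0.88 relative to PBS replicate 2). One PBS signal lay below the filter signal and the other just above it.

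SLC5A6, the sodium-dependent multivitamin transporter of biotin and pantothenate, had signals of 867 and 650.1 on the rhLH arrays, against 418 and 585 on the PBS arrays. Both rhLH arrays were above both PBS arrays (log2 0.59, SE 0.39), by 0.82 relative to PBS replicate 1 and 0.35 relative to PBS replicate 2. SLC5A10, a mannose and fructose transporter known from kidney, had 388 and 364 on the rhLH arrays, against 314 and 172 on the PBS arrays (log2 0.65, SE 0.48), likewise separated. On the lower side, SLC5A12, a low-affinity lactate carrier, had 54.7 and 114 on the rhLH arrays, against 179 and 142 on the PBS arrays. SLC5A1 (SGLT1) had 111 and 73.9 on the rhLH arrays, against 209 and 101 on the PBS arrays, and the inositol carrier SLC5A3 had 111 and 86.7 on the rhLH arrays, against 90.8 and 87.9 on the PBS arrays, both with overlapping groups.

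Of the monocarboxylate transporters, SLC16A1 (MCT1, a proton-coupled carrier of lactate and pyruvate) had signals of 837 and 853 on the rhLH arrays, against 1233 and 698 on the PBS arrays, with the rhLH arrays between the PBS arrays (log2 −0.13, SE 0.40, and 0.095 with centred arrays; −0.54 relative to PBS replicate 1 and 0.27 relative to PBS replicate 2). SLC16A3 (MCT4, the lactate exporter of glycolytic cells) had 456 and 484 on the rhLH arrays, against 155 and 457 on the PBS arrays. PBS replicate 2 lay between the rhLH arrays, and the log2 difference of 0.77 (SE 0.59) consisted of 1.51 relative to PBS replicate 1 and 0.039 relative to PBS replicate 2. SLC16A9, a carnitine carrier in humans, had 388 and 848 on the rhLH arrays, against 2027 and 694 on the PBS arrays. The groups overlapped there and PBS replicate 1 was the highest array (log2 −1.03, SE 0.64; −1.79 relative to PBS replicate 1 and −0.26 relative to PBS replicate 2).

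SLC16A7 (MCT2, a high-affinity pyruvate carrier) was the 1 gene of 8 in this family above the filter with separated groups (background 16.1% lower), while either other scaling gave 1 lower and 1 higher. Its signals were 118 and 108 on the rhLH arrays, against 259.6 and 182 on the PBS arrays, a log2 difference of −0.86 (SE 0.53; −1.10 relative to PBS replicate 1 and −0.62 relative to PBS replicate 2). A further probe set, below the filter, had both rhLH arrays below both PBS arrays as well, at −1.55. The other 4 had overlapping groups: SLC16A5 stood at 0.83, SLC16A8 at −0.44, SLC16A11 at −0.054 and SLC16A13 at −0.28.

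Basigin, encoded by BSG, is the chaperone that brings MCT1 and MCT4 to the cell surface. Of the 5 genes listed as transporter partners, 3 were matched and 1, BSG, lay above the filter. BSG had signals of 3421 and 3886 on the rhLH arrays, against 826 and 3869 on the PBS arrays, so that, as for SLC16A3, PBS replicate 1 was low and PBS replicate 2 lay at the level of the rhLH arrays (log2 2.12 relative to PBS replicate 1 and −0.085 relative to PBS replicate 2). The BSG log2 difference was 1.02, but 0.33 with the mean over all probe sets of the gene. LDHA, the lactate dehydrogenase subunit that makes lactate, had 17409 and 15820.5 on the rhLH arrays, against 11332 and 13745 on the PBS arrays, with both rhLH arrays above both PBS arrays (log2 0.41, SE 0.35).

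The SLC6 family had 8 genes above the filter, of which 3 had both rhLH arrays below both PBS arrays and 0 above (background 16.1% and 16.3%). With centred arrays 2 were lower and 1 higher. SLC6A9 (GLYT1, a glycine importer) had signals of 1372 and 795 on the rhLH arrays, against 148 and 927 on the PBS arrays, and SLC6A8, the creatine importer, had 630.0 and 496 on the rhLH arrays, against 159.8 and 654 on the PBS arrays. In both genes PBS replicate 1 was low while PBS replicate 2 was within the range of the rhLH arrays or just above it. The log2 difference was 1.43 (SE 0.84) for SLC6A9, with 2.69 relative to PBS replicate 1 and 0.17 relative to PBS replicate 2, and 0.75 (SE 0.69) for SLC6A8, with 1.71 relative to PBS replicate 1 and −0.22 relative to PBS replicate 2.

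SLC6A3, the dopamine transporter, had 259 and 298 on the rhLH arrays, against 389 and 369 on the PBS arrays. The PBS arrays lay close together and above both rhLH arrays (log2 −0.43, SE 0.41), and its further probe set stood at −0.57 with overlapping groups. SLC6A18, known in mouse as a renal amino acid carrier, had 107 and 186 on the rhLH arrays, against 273 and 258 on the PBS arrays, also with close PBS arrays above both rhLH arrays (log2 −0.84). The orphan carrier SLC6A16 was separated at −0.48, but by −0.068 against PBS replicate 2. SLC6A6, the taurine importer, stood at 0.019, SLC6A7, a proline carrier of brain, at −0.61 and SLC6A17, a vesicular amino acid carrier of neurons, at 0.13, with overlapping groups. Further SLC6A17 probe sets above the filter stood at −0.57, with both rhLH arrays below both PBS arrays, and at −0.23, with overlapping groups.

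**Figure D3:**
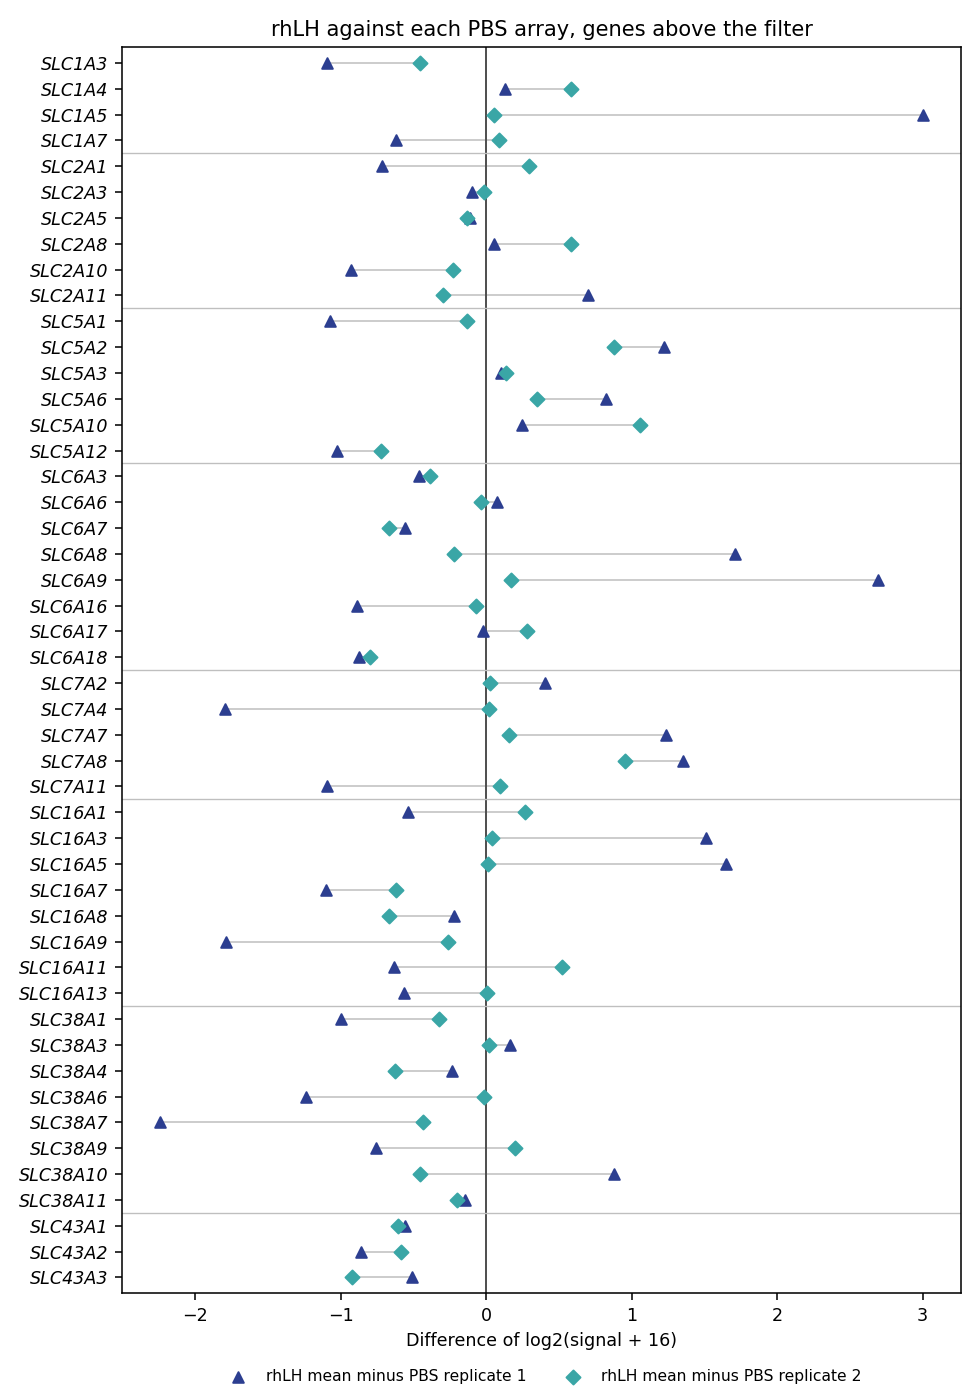
Difference of the mean log2(signal + 16) of the 2 rhLH arrays from PBS replicate 1 (triangles) and from PBS replicate 2 (diamonds), for the 48 genes above the filter, by family, where values right of 0 are higher with rhLH. The triangles spread further from 0 (from −2.24 for SLC38A7 to 3.00 for SLC1A5) than the diamonds (from −0.92 for SLC43A3 to 1.06 for SLC5A10).

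Of the 28 genes below the filter, 16 were under its signal of 90.7 on every array, and 12 exceeded it on at least 1. Over all 76 genes, 24 had both rhLH arrays below both PBS arrays (31.6%, background over all 14132 genes 17.5%) and 7 had both above (9.21%, background 15.1%). The 2-fold rule was met on the lower side by 2 of the 76 (2.63%, background 0.835%) and on the higher side by 0 (background 0.488%). These were SLC6A15, a neutral amino acid carrier of neurons, with 50.4 and 8.82 on the rhLH arrays, against 179 and 130.2 on the PBS arrays, and the GABA transporter SLC6A11, with 24.5 and 21.4 on the rhLH arrays, against 109 and 102 on the PBS arrays. In both, the PBS signals were above the filter signal and the rhLH signals below it. SLC7A3, a cationic amino acid carrier, had 12.8 and 15.2 on the rhLH arrays, against 641 and 21.2 on the PBS arrays, a high signal on PBS replicate 1 alone.

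The other genes under 90.7 on all arrays were SLC1A2, SLC1A6, SLC2A13, SLC5A4, SLC5A8, SLC5A9, SLC5A11, SLC6A5, SLC6A14, SLC6A20, SLC7A13, SLC7A14 and SLC16A10. Those above it on some arrays were SLC2A9, SLC5A7, SLC6A2, SLC6A12, SLC7A9, SLC16A4 and SLC38A5, with no signal higher than 169. Among the 28, SLC2A2 and SLC2A4 were the 2 genes with both rhLH arrays above both PBS arrays.

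Several probe sets above the filter were available for 17 genes, and in 8 of them all had the same sign of difference: negative for SLC2A3, SLC6A3, SLC6A7, SLC38A9 and SLC43A3, and positive for SLC7A2, SLC7A7 and SLC16A3. In the other 9 the signs were mixed. SLC7A2 spanned 0.04 to 1.54, and 2 of its 4 probe sets had PBS replicate 1 signals of 49.9 and 58.3, against 366 to 678 on the other 3 arrays.

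**Figure D4:**
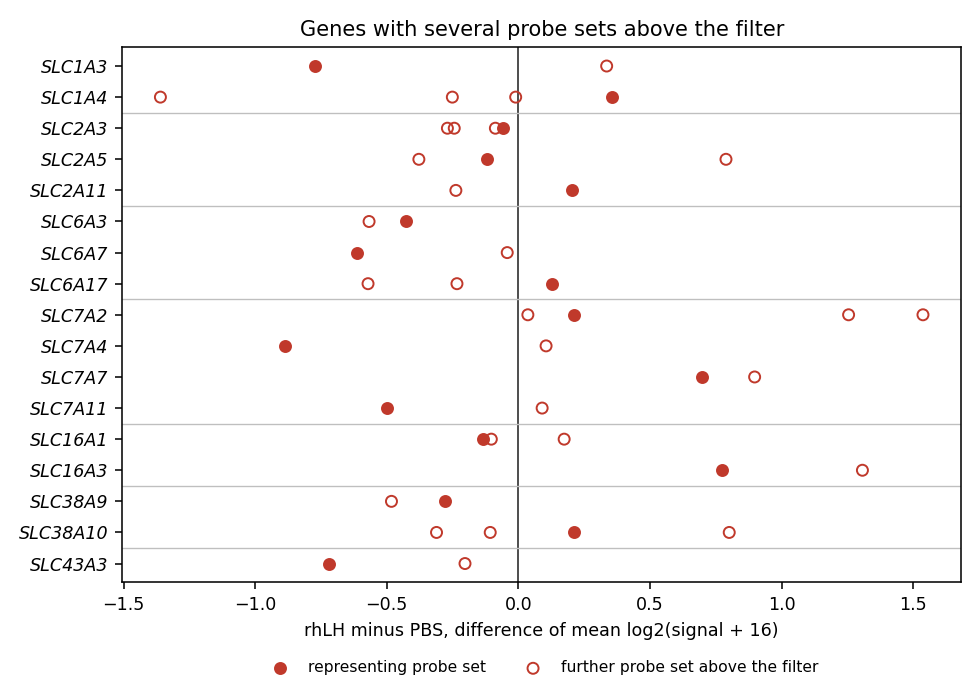
Difference of mean log2(signal + 16), rhLH minus PBS, for every probe set above the filter of the 17 genes that have several. Filled points mark the probe set that represents the gene and open points the others, which cross 0 in 9 genes, among them SLC1A3, SLC1A4 and SLC38A10.

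Genes that act beside these transporters were described from lists, of which 0 members passed the limma test. Of the 8 genes for traffic and turnover of glucose transporters, 6 were above the filter, with 3 higher on both rhLH arrays (background 16.3%), 0 lower (background 16.1%) and a median log2 difference of 0.31 (all genes 0.018). TBC1D1, a RAB GTPase-activating protein of GLUT4 vesicles, had 602 and 694 on the rhLH arrays, against 477 and 441 on the PBS arrays (log2 0.48, SE 0.36). RAB10, a GTPase of the same route, had 363 and 372 on the rhLH arrays, against 40.1 and 322 on the PBS arrays, a difference resting mainly on PBS replicate 1. TXNIP, which promotes internalization of GLUT1, had 13017 and 14458 on the rhLH arrays, against 13824 and 24889.9 on the PBS arrays; the groups overlapped, and PBS replicate 2 was the highest array.

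Of the 13 genes for the first intracellular steps, 7 were above the filter, with 1 higher (background 16.3%), 3 lower (background 16.1%) and a median of −0.29. The 3 lower genes were GLUL, glutamine synthetase, with 3574 and 2938 on the rhLH arrays, against 4353 and 5354 on the PBS arrays (log2 −0.57, SE 0.32), BCAT1, the cytosolic branched-chain aminotransferase, with 3444 and 3301 on the rhLH arrays, against 5874 and 3712 on the PBS arrays, and its mitochondrial counterpart BCAT2, with 633 and 691 on the rhLH arrays, against 727 and 910.3 on the PBS arrays. BCAT2 lies outside the naming rule. With the mean over all probe sets of a gene, GLUL stood at −0.26 instead of −0.57 and BCAT1 at −0.098 instead of −0.47. Of the 12 genes of the amino acid response, 8 were above the filter, with 1 lower (background 16.1%), 0 higher (background 16.3%) and a median of 0.29, which was 0.85 relative to PBS replicate 1 and −0.21 relative to PBS replicate 2. PHGDH, the first enzyme of serine synthesis, had signals of 447 and 559.9 on the rhLH arrays, against 1045 and 879 on the PBS arrays, with both rhLH arrays below both PBS arrays (log2 −0.92, SE 0.36; unadjusted p = 0.043 and adjusted p = 0.919, limma). ATF4, the transcription factor of this response, had 14324 and 12309.7 on the rhLH arrays, against 5098 and 12680.0 on the PBS arrays, and its target TRIB3 had 129.5 and 33.9 on the rhLH arrays, against 292 and 76.7 on the PBS arrays, both with overlapping groups.

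Of the 16 genes for amino acid sensing by mTORC1, 13 were above the filter, with 4 higher (background 16.3%), 0 lower (background 16.1%) and a median of 0.22, 0.48 relative to PBS replicate 1 and 0.0094 relative to PBS replicate 2. Of the 5 subunits of the Ragulator complex, which anchors this sensing to the lysosome, LAMTOR1 and LAMTOR5 had both rhLH arrays above both PBS arrays, at log2 differences of 0.56 and 0.46, while LAMTOR2, LAMTOR3 and LAMTOR4 overlapped, at 0.53, −0.29 and 1.02. LAMTOR2 and LAMTOR3 lie outside the naming rule. Relative to PBS replicate 2, the 5 differences ran from −0.035 for LAMTOR3 to 0.19 for LAMTOR5. Outside Ragulator, the higher genes were NPRL2 and NPRL3, at log2 differences of 0.58 and 0.27, which also lie outside the naming rule.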

How the data were processed

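Corpus luteum RNA was hybridised to 4 Affymetrix rhesus macaque arrays, 1 sample per array. The deposited values are probe set intensities, MAS5 signals on a linear scale that the authors computed, per the labels and the submitters' processing notes. Detection calls, the scaling target and the match of rhesus probes to bonnet monkey transcripts were not used here. The 2% trimmed mean was 500.0 on every array, so signals were used as log2(signal + 16) without further normalization. The distributions still differed. The median signal was 186.4 on PBS replicate 1, against 135.5 and 135.4 on the rhLH arrays and 139.4 on PBS replicate 2. The 99th percentile was 8734 on PBS replicate 1, against 11773 and 11966 on the rhLH arrays and 12064 on PBS replicate 2. Of 52865 probe sets, 99 controls were set aside, and 31659 with a mean log2 above the 40th percentile entered limma 3.58.1 (R 4.3.3). The test was two-sided, used eBayes with an intensity trend after lmFit, and was adjusted over all 31659 by Benjamini-Hochberg. Symbols came from the platform annotation: 24956 probe sets had 1, 361 several and 27449 none.

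Groups and replicate numbers came from the sample titles. The labels give 2 animals per group but do not tie arrays to animals, so p-values measure the spread between these arrays, which may in part be technical. The number of arrays limits the precision. The fit was tested on simulated data. Members, lists and the naming rule were chosen with earlier results of these data known. The rule also takes genes whose probe sets above the filter lie 0.5 or more on both sides of 0, of which there were 0, and the 3 smallest p-values of each of 5 pathway lists. Markers of T cells, red cells and smooth muscle were matched for only 1 or 2 genes each. Alternatives covered the scaling, pseudocounts of 1 and 64, the filter, the limma settings, the mean over a gene's probe sets and leaving out each array. Sequences were not used here.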

Additional observations from a re-analysis of the deposited data

How the results depend on the processing

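No paired analysis was possible because the groups share no replicate numbers. The count of probe sets called by limma stayed at 0 (641 at an unadjusted p under 0.05) under every alternative run except without PBS replicate 2, where 8169 were called (25.8%), 11 of the 48 transporters among them (22.9%); leaving out 1 array at a time thus gave 0 to 8169. In these fits a lone array is assumed to vary like the other group. Transporters with both rhLH arrays above both PBS arrays (5) numbered 8 under quantile normalization, 10 with arrays centred on their medians, 2 with the filter at the 70th percentile and 11 to 14 with 1 array left out, where fewer arrays make separation easier (all genes 25.4% to 43.5%). Those lower (15) numbered 8 with centred arrays, 4 with the stricter filter, 24 with no filter and 18 to 25 with 1 array left out (all genes 26.4% to 43.5%). The median of −0.19 was 0.036 with centred arrays, −0.11 under quantile normalization, −0.11 with no filter and −0.35 to −0.014 with 1 array left out, the last without PBS replicate 1, where all genes stood at −0.0024.

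Signs turned for SLC16A1 (0.095), SLC2A1 (0.019) and SLC2A3 (0.17) with centred arrays, and for SLC1A4 (−0.32), SLC2A1 (0.060) and TXNIP (0.20) with the mean over a gene's probe sets. With 1 array left out, ranges that crossed 0 were −0.54 to 0.27 for SLC16A1, −0.71 to 0.30 for SLC2A1, −0.62 to 0.088 for SLC1A7, −0.46 to 0.88 for SLC38A10, −0.76 to 0.20 for SLC38A9, −0.22 to 1.71 for SLC6A8, −0.11 to 1.501 for SLC7A7, −0.041 to 0.47 for SLC7A2 and −0.085 to 2.12 for BSG. The cause was not tested. The other named genes kept their sign throughout.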
